A study of Mus musculus with 16 samples.

Results

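The genes described here encode the nuclear subunits of the 5 oxidative phosphorylation complexes of the mouse. They were chosen by gene symbol alone, as every listed gene whose symbol begins with Nduf and a subunit letter and number, Uqcr, Cox4 to Cox8 or Atp5, or is Sdha, Sdhb, Sdhc or Sdhd. Assembly factors named Ndufaf were left out. The rule found 89 of the 21959 genes listed, all annotated as protein coding: 39 in complex I, 4 in complex II, 8 in complex III, 19 in complex IV and 19 in complex V. Of these, 82 passed the filter on low counts and were tested. The 7 that did not were Cox6a2, Cox6b2, Cox7b2, Cox8b, Cox8c, Ndufb11b and 1 of the 2 identifiers that carry the symbol Atp5po.

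RNA was measured in tumor tissue of 16 mice with liver metastases, 4 mice in each of 4 groups. All mice were wild-type C57BL/6 males, 6 weeks old when MC38 colon adenocarcinoma cells were placed in the spleen, so that every group carries the same host and the same injected line. The control group received PBS. The SB525334 group received an inhibitor of the type I TGF-β receptor (ALK5) at 20 mg/kg by daily gavage, the KN046 group a PD-L1 and CTLA-4 antibody at 10 mg/kg into the peritoneum 2 times a week, and the combination group both agents. The model rests on 1 injected cell line, and the sampled tissue also held host cells. The labels number the samples of a group without saying how the animals were housed or collected, so the p-values below measure the spread between these samples.

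Oxidative phosphorylation takes place at the inner mitochondrial membrane. Complexes I and II pass electrons from NADH and succinate to ubiquinone, complex III passes them to cytochrome c, and complex IV passes them to oxygen, while complexes I, III and IV move protons that drive ATP synthesis by complex V. Every complex except complex II also contains subunits encoded by mitochondrial DNA, and hepatocytes, the main cells of the liver around these tumors, are rich in mitochondria.

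Libraries held 18368994 to 23877131 counted reads. Libraries were compared within groups by a chi-square statistic on the counts of each gene, and control mice 1 and 2 (median 1.25) and control mice 3 and 4 (median 0.956) were more alike than any other pair (2.82 or more). The difference within both pairs was still larger than sampling noise, since 24.8% and 18.1% of genes lay past the 95% point. That does not show that the samples of a pair came from separate animals, which was not tested. The control samples were kept as 4 mice, with the pairs merged as an alternative. Every control value with n = 4 rests on this choice. The members that passed the test in the combination against control no longer did so with the pairs merged. Hepatocyte markers differed strongly between groups: the summed level of 18 such genes was 15443 ± 1003 CPM (read counts brought to a common library size) in control mice, 1326 ± 556 CPM in SB525334 mice, 14989 ± 4296 CPM in KN046 mice and 234 ± 69.5 CPM in combination mice (SD, n = 4). The 6 epithelial or carcinoma markers, some of which hepatocytes also express, summed to 196 ± 53.7 CPM in control mice and 12.3 ± 4.42 CPM with the combination. In bulk tissue, fewer cells of a type and less RNA per cell cannot be told apart.

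Complex V took the largest share of the reads of the members, 45.5% of the summed CPM over the 16 mice with no correction for length, followed by complex I with 23.5%, complex IV with 15.1%, complex III with 8.28% and complex II with 7.64%. Levels between genes were compared per kilobase of exon. The most abundant members on that scale were Atp5f1b (249 CPM per kb) and Atp5f1a (204 CPM per kb), the catalytic β and α subunits of ATP synthase, and the complex IV subunits Cox6a1 (247 CPM per kb) and Cox8a (160 CPM per kb). With the length of the canonical transcript in place of all exons these 4 genes were again at the top, at 598, 366, 309 and 254 CPM per kb. The 2 highest members of the other complexes, per kilobase of exon, were Ndufa2 (51.4) and Ndufb10 (51.2) in complex I, Sdhd (45.2) and Sdha (32.6) in complex II, and Uqcrfs1 (37.9), the Rieske iron-sulfur protein, and Uqcrh (34.5), the hinge protein, in complex III. Per kilobase of canonical transcript this ranking held in complex II (91.8 and 88.2) but not in complexes I and III. Ndufa2 (54.4) and Ndufb10 (85.7) were then below members such as Ndufa4 (102). Uqcrfs1 (42.9) and Uqcrh (51.9) were below members such as Uqcrc1 (82.7).

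The summed level of all members was 5947, 6056, 8303 and 8392 CPM in control mice 1 to 4. It was 7646, 7154, 7755 and 7207 CPM in the SB525334 group, 6788, 6432, 8013 and 7220 CPM in the KN046 group, and 6396, 10263, 8186 and 7965 CPM in the combination group. All 4 groups overlapped. The group means were 7174 ± 1356 CPM in control mice, 7441 ± 304 CPM in SB525334 mice, 7113 ± 681 CPM in KN046 mice and 8203 ± 1588 CPM in combination mice (SD, n = 4), and the ratios of these means to control were 1.04, 0.992 and 1.14. These differences were smaller than the range within the control group, where the highest mouse was 1.41 times the lowest, and within the combination group, where it was 1.60 times the lowest.

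**Figure D1:**
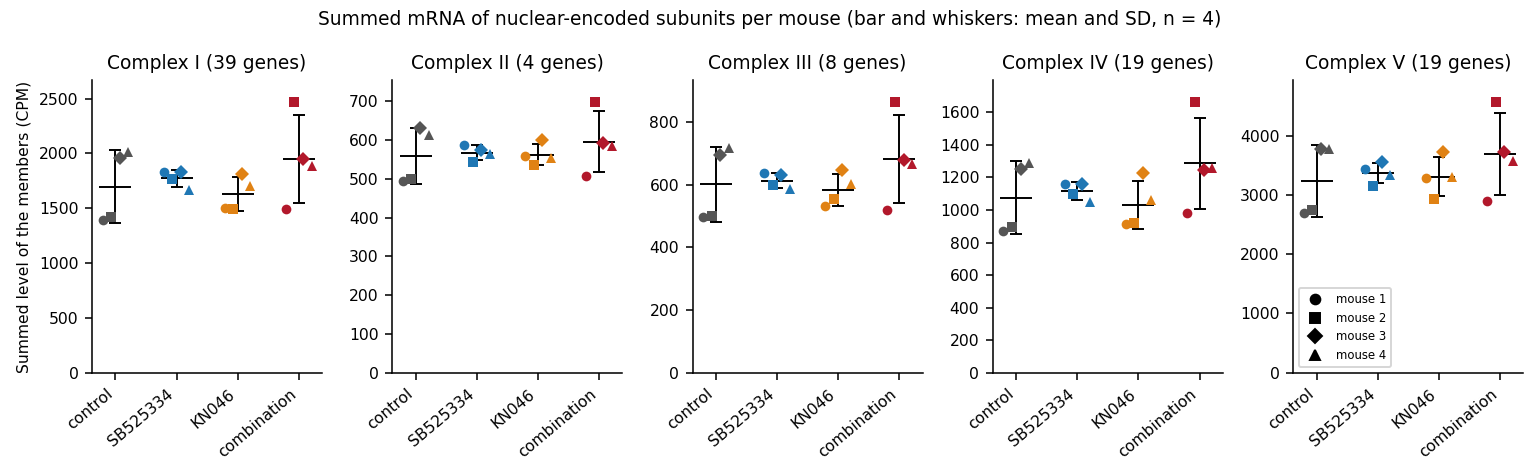
Summed level of the members of each complex in CPM (vertical axis) by group (horizontal axis), 1 symbol per mouse, with mean and SD (n = 4). Control mouse 1 is the lowest and combination mouse 2 the highest of the 16 mice in all 5 complexes, and control mice fall into a low pair (1 and 2) and a high pair (3 and 4).

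The members moved together from mouse to mouse. Control mice 3 and 4 were both above control mice 1 and 2 in 75 of the 82 tested members (91.5%), against 38.4% of all genes tested. Combination mouse 2 had the highest level of the 16 mice in 70 of the 82 members (85.4%), against 15.5% of all genes. Relative to each member's own mean over the mice, the median member was 0.51 higher on the log2 scale in combination mouse 2, 0.29 lower in control mouse 1 and KN046 mouse 1, and 0.28 lower in control mouse 2. Within groups, the median SD of the members was 0.259 on the log2 scale, against 0.186 for 5131 other genes of like level and 0.244 for all genes tested. Sdha, the flavoprotein of complex II, was the steadiest member (SD 0.0983), followed by Ndufs1 (SD 0.0991), the largest subunit of the complex I electron input module. Ndufb2 varied most (SD 0.624), at a level of only 3.41 CPM.

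**Figure D2:**
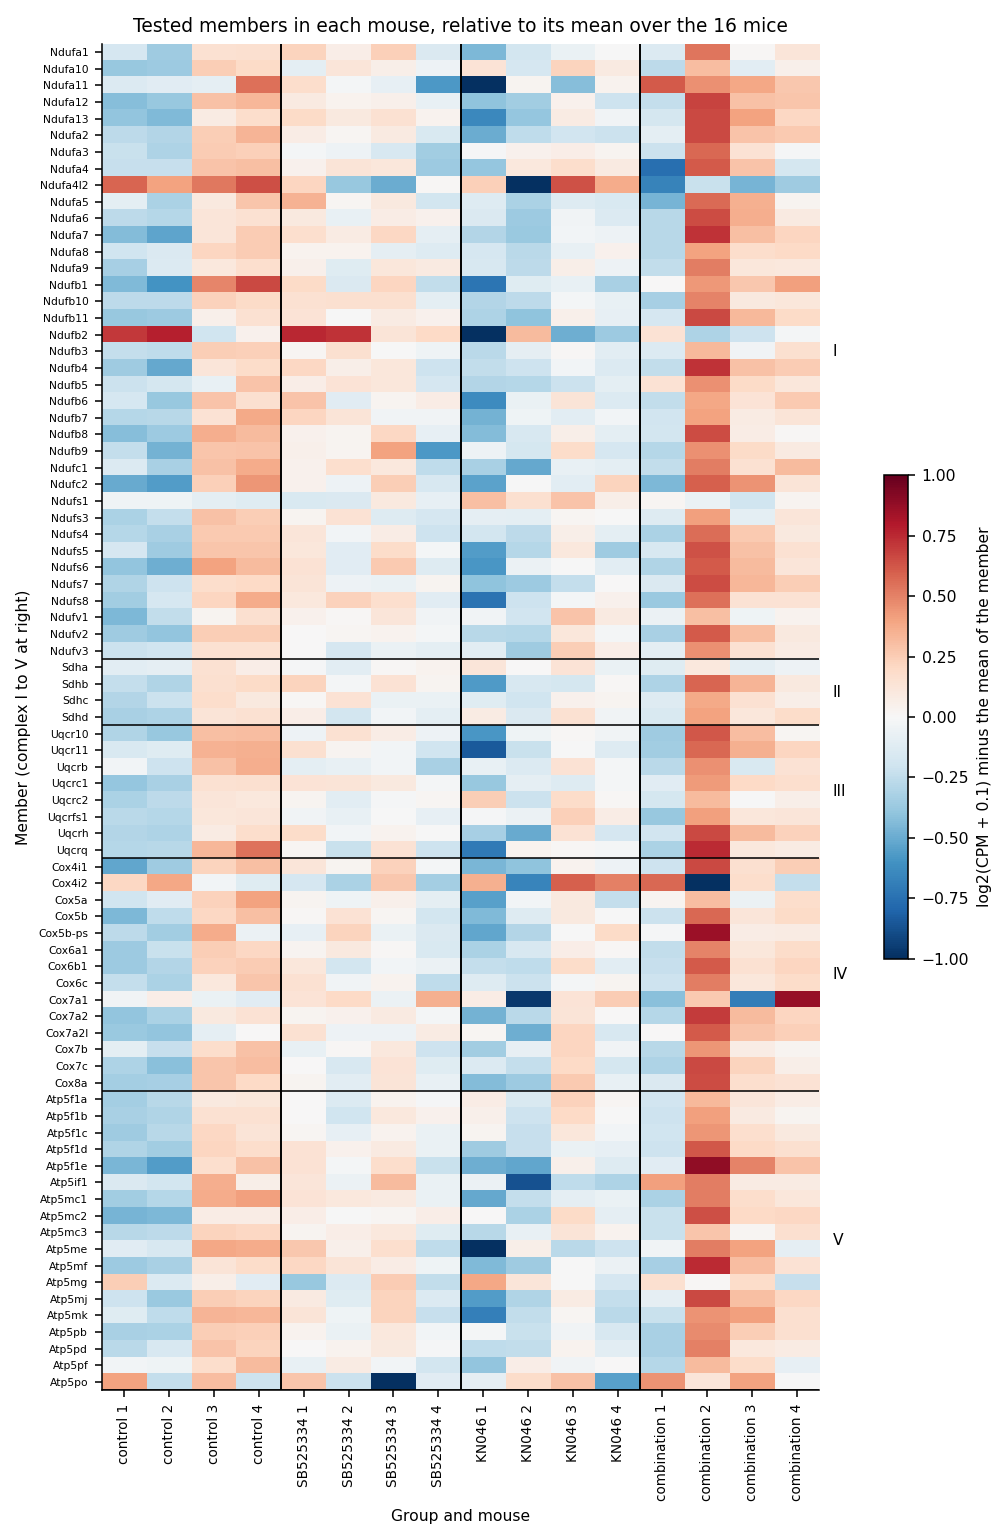
81 of the 82 tested members (rows, ordered by complex) in each of the 16 mice (columns), as log2(CPM + 0.1) minus the member's mean, with red above and blue below the mean. Most rows share 1 pattern, high in combination mouse 2 and control mice 3 and 4 and low in control mice 1 and 2. Ndufa4l2, Ndufs1, Ndufb2, Cox4i2 and Cox7a1 are among the rows that do not follow it.

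SB525334 against control asks what the inhibitor alone changed. No member passed an adjusted p of 0.05 in edgeR's quasi-likelihood test, where 9.61% of the 13968 genes tested did (0.394% higher and 9.22% lower), and no member passed it in DESeq2. The median log2 fold change of the members was 0.03, with 55 of 82 above 0, against a median of 0.00 over all genes. The complexes were close to each other, with medians of 0.04, 0.03, 0.01, 0.01 and 0.03 for complexes I to V. At an unadjusted p under 0.05 there was 1 member, where 2643 of the 13968 genes were. This member was Ndufa4l2 (log2 fold change -0.69 ± 0.28 SE, adjusted p = 0.161 in edgeR), and with the 8 mice of this comparison fitted alone its adjusted p was 0.0426. It was also the only member whose mice did not overlap between the groups, where 18.3% of all genes did not overlap.

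KN046 against control asks what the antibody alone changed. Again no member passed an adjusted p of 0.05, where 4% of all genes did (1.6% higher and 2.4% lower), and 66 of 82 members lay below 0 with a median log2 fold change of -0.11. At an unadjusted p under 0.05 there were 2 members, where 3226 of the 13968 genes were. Ndufs1 measured 60.2, 60.2, 57.9 and 56.9 CPM in control mice and 76.1, 69.0, 75.4 and 64.6 CPM with KN046. Its groups did not overlap, as held for 11.6% of all genes, and the log2 fold change was 0.28 ± 0.09 SE (adjusted p = 0.0780 in edgeR). DESeq2 called this gene higher. For Ndufb2, an accessory subunit of complex I, it was -0.85 (adjusted p = 0.196).

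The combination against control gave 2 called members of 82 (2.44%), 1 lower and 1 higher, where 11.1% of all genes were called (1.37% higher and 9.74% lower). The remaining 80 did not pass the test, although 76 of the 82 members lay above 0, with a median log2 fold change of 0.18 against 0.01 over all genes. The medians of complexes I to V were 0.18, 0.20, 0.14, 0.20 and 0.18. Without combination mouse 2 the median of the members was 0.08. At an unadjusted p under 0.05 there were 10 members, 9 of them higher, where 3093 of the 13968 genes were. With control mice 3 and 4 left out 23 members were called, and with control mice 1 and 2 left out none was. These pairs were split after the data were seen and differ in the members themselves, so both counts are a description of the pairs. The share of all genes called in these fits was not set beside them.

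Ndufa4l2, a paralog of Ndufa4 that is known as a target of hypoxia-inducible factor, was the called member that fell. It lies at chr10:127350818-127353038 on the plus strand of GRCm39. It measured 7.22, 6.34, 6.95 and 7.53 CPM in control mice, 5.56, 3.66, 3.36 and 4.82 CPM in SB525334 mice, 5.65, 2.29, 7.49 and 6.23 CPM with KN046, and 2.98, 4.08, 3.44 and 3.72 CPM with the combination. All 4 combination mice were below all 4 control mice, while KN046 mice spread over both ranges. Combination and control mice did not overlap in 17.4% of all genes (12.1% lower with the combination) and in 2 of the 82 members. The log2 fold change against control was -0.98 ± 0.28 SE (adjusted p = 0.0285 in edgeR). The call was lost with the control pairs merged (adjusted p = 0.134) and in 6 of the 8 fits that left out 1 mouse (highest adjusted p = 0.0778, without combination mouse 3). The levels were low, between 47 and 165 counts per mouse. On its exons, 63.3% of the bases overlap Shmt2 on the opposite strand, and the strand setting of the counting is not given in the sources used here. Shmt2, a serine hydroxymethyltransferase of mitochondria, was not called in the same comparison (log2 fold change -0.09, adjusted p = 0.793). Of the 12 hypoxia response genes none was called in this comparison, and their median log2 fold change was 0.07. In SB525334 against control 2 of them were called lower, Adm (-2.86) and Vegfa (-0.65), where 9.22% of all genes were. None was higher there, and the median was -0.31. In KN046 against control none was called and the median was 0.51. Adm was also lower in the combination against KN046 (-1.79). Whether Ndufa4l2 moved with these genes was not tested.

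Cox7a2l, which is known for linking complexes III and IV in supercomplexes, was the called member that rose. It lies at chr17:83765970-83824759 on the minus strand of GRCm39. It measured 142, 140, 173 and 185 CPM in control mice, 205, 178, 178 and 195 CPM in SB525334 mice, 187, 132, 214 and 165 CPM with KN046, and 185, 282, 223 and 218 CPM with the combination. The lowest combination mouse lay 1 place above the highest control mouse in rank, at nearly the same level. The log2 fold change was 0.50 ± 0.15 SE (adjusted p = 0.0334 in edgeR), and it was lost with the control pairs merged (adjusted p = 0.167) and in 4 of the 8 fits that left out 1 mouse. Of its transcript, 85.2% has a copy at up to 98.4% identity at 1 other place in the genome, so reads of the gene and the copy cannot be fully told apart.

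**Figure D3:**
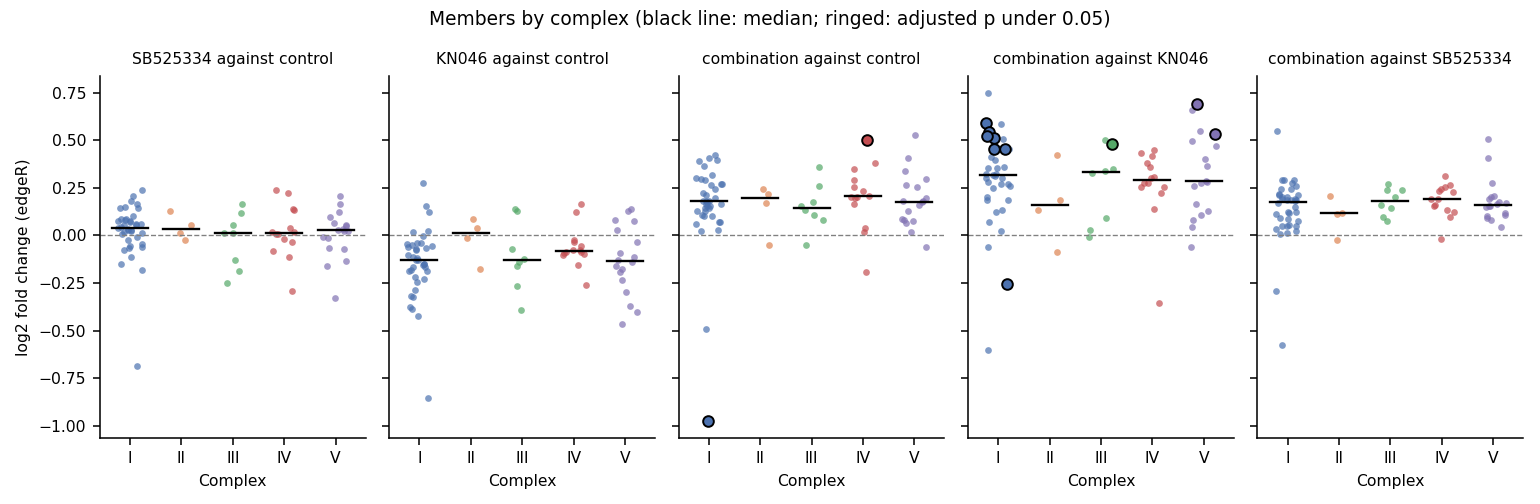
Log2 fold change of each tested member (vertical axis, edgeR) by complex (horizontal axis) in 5 comparisons, with a line at the median of each complex and a ring on members with an adjusted p under 0.05. The points sit around 0 for SB525334, slightly below for KN046 and above 0 for the combination, and 10 of the 12 rings are in the comparison of the combination with KN046.

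The combination against KN046 asks what adding SB525334 to the antibody changed, and it held most of the calls. It called 10 of 82 members (12.2%), 9 higher and 1 lower, where 24.4% of all genes were called (9.89% higher and 14.5% lower). The higher calls among the members were thus near the share over all genes. The median log2 fold change of the members was 0.31, against 0.00 over all genes, and 75 of 82 lay above 0. Complex medians were 0.32, 0.16, 0.33, 0.29 and 0.28. Leaving out combination mouse 2 lowered the median to 0.17. At an unadjusted p under 0.05 there were 29 members, 27 of them higher. They were a smaller share than the 5450 of all 13968 genes at that threshold. The count depended on single mice: without combination mouse 2 it was 0, and without combination mouse 1, the lowest of its group, it was 34. The share of all genes called in these fits was not set beside these counts. Groups did not overlap in 6 members (Ndufa2, Ndufa11, Ndufb1, Ndufb5, Ndufs1 and Atp5if1), where 20.3% of all genes did not overlap. In this comparison 17 of 18 hepatocyte markers fell, and 5 of 5 tested T cell markers (summed 5.64 to 16.7 CPM with KN046 and 20.3 to 42.0 CPM with the combination) and 4 of 6 macrophage markers (454 to 937 CPM and 822 to 945 CPM) rose, and their part in the members' values was not tested.

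In complex V the calls were Atp5f1e and Atp5mj. Atp5f1e, the ε subunit of the central stalk, measured 38.2, 37.5, 55.8 and 49.0 CPM with KN046 and 49.8, 99.5, 76.1 and 65.7 CPM with the combination. Control mice ranged from 36.4 to 65.9 CPM and SB525334 mice from 46.2 to 60.8 CPM, so that 3 of the combination mice were above every KN046 mouse and the fourth was within their range. The log2 fold change was 0.69 ± 0.21 SE (adjusted p = 0.0271 in edgeR), passed in all 8 alternatives that kept every mouse (adjusted p 0.0137 to 0.0478) and was lost in 4 of the 8 fits that left out 1 mouse (highest adjusted p = 0.102, without combination mouse 2). No copy of its transcript and no overlapping gene was found. Atp5mj, a small membrane subunit, was 0.53 higher on the log2 scale (adjusted p = 0.0378). It was called in 2 of the 8 fits that left out 1 mouse (highest adjusted p = 0.131, without combination mouse 2) and was lost with only the 8 mice compared (adjusted p = 0.0776). Copies at 421 other places together cover 15.5% of the Atp5mj transcript, and 11.9% of its exon bases overlap genes on the opposite strand.

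In complex I the higher calls by the naming rule were Ndufa2, Ndufs7 and Ndufa13. Ndufa2, an accessory subunit, measured 21.9, 26.0, 27.1 and 26.7 CPM with KN046 and 29.0, 49.1, 37.7 and 37.3 CPM with the combination, with no overlap. Its log2 fold change was 0.59 ± 0.16 SE (adjusted p = 0.0157 in edgeR), and its adjusted p over the alternatives that kept every mouse was 0.00662 to 0.0365, and 0.0592 without combination mouse 2. Tmco6 overlaps 11.4% of the Ndufa2 exon bases on the opposite strand. Tmco6 was also called higher in this comparison (log2 fold change 0.54, adjusted p = 0.0113 in edgeR), and its part in the Ndufa2 counts was not tested. Ndufs7, a core subunit that holds an iron-sulfur cluster next to the ubiquinone site, measured 33.7, 34.8, 37.9 and 44.7 CPM with KN046 and 40.5, 70.4, 56.4 and 53.2 CPM with the combination, and only combination mouse 1 fell within the KN046 range. The log2 fold change was 0.54 ± 0.15 SE (adjusted p = 0.0170 in edgeR, 0.0642 without combination mouse 2 and 0.0550 with only the 8 mice compared). Of its exon bases, 49.4% overlap Gamt on the opposite strand. Gamt was not called in this comparison (log2 fold change -0.12, adjusted p = 0.687 in edgeR). Ndufa13, also known as GRIM-19, was 0.52 higher on the log2 scale (adjusted p = 0.0456). It was called in 3 of the 8 fits that left out 1 mouse (highest adjusted p = 0.152, without combination mouse 2), and 43.3% of its exon bases overlap other genes, nearly all on the opposite strand.

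The other higher calls were Uqcrh in complex III (log2 fold change 0.48, adjusted p = 0.0442) and 3 complex I accessory subunits outside the naming rule, named after their values were seen: Ndufs5 (0.51, adjusted p = 0.0471), Ndufb11 (0.46, adjusted p = 0.0457) and Ndufb5 (0.46, adjusted p = 0.0173). Ndufb5 measured 17.5, 17.6, 18.5 and 20.1 CPM with KN046 and 23.8, 29.5, 24.6 and 23.2 CPM with the combination, and these groups did not overlap. A copy elsewhere in the genome covers 91% of the Ndufs5 transcript, and copies at 366 other places together cover 46% of the Uqcrh transcript. Of the Ndufb11 exon bases, 67.8% overlap Rbm10 on the opposite strand. Rbm10 was itself called higher in this comparison (log2 fold change 0.41, adjusted p = 0.0231 in edgeR). Its part in the Ndufb11 counts was not tested. Of the 8 fits that left out 1 mouse, 2 called Uqcrh, 2 Ndufs5, 3 Ndufb11 and 7 Ndufb5, and the highest adjusted p values, without combination mouse 2, were 0.153, 0.164, 0.164 and 0.0571. With only the 8 mice compared, Ndufa13, Uqcrh, Ndufs5 and Ndufb11 were not called (adjusted p 0.101, 0.109, 0.0982 and 0.106).

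Ndufs1 was the 1 member that was lower with the combination than with KN046. It measured 62.9, 59.1, 53.8 and 62.9 CPM with the combination, below all 4 KN046 mice and on both sides of the control mice. The log2 fold change was -0.26 ± 0.09 SE (adjusted p = 0.0428 in edgeR). Only 3 of the 8 alternatives that kept every mouse called it, with adjusted p from 0.0288 to 0.119.

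**Figure D4:**
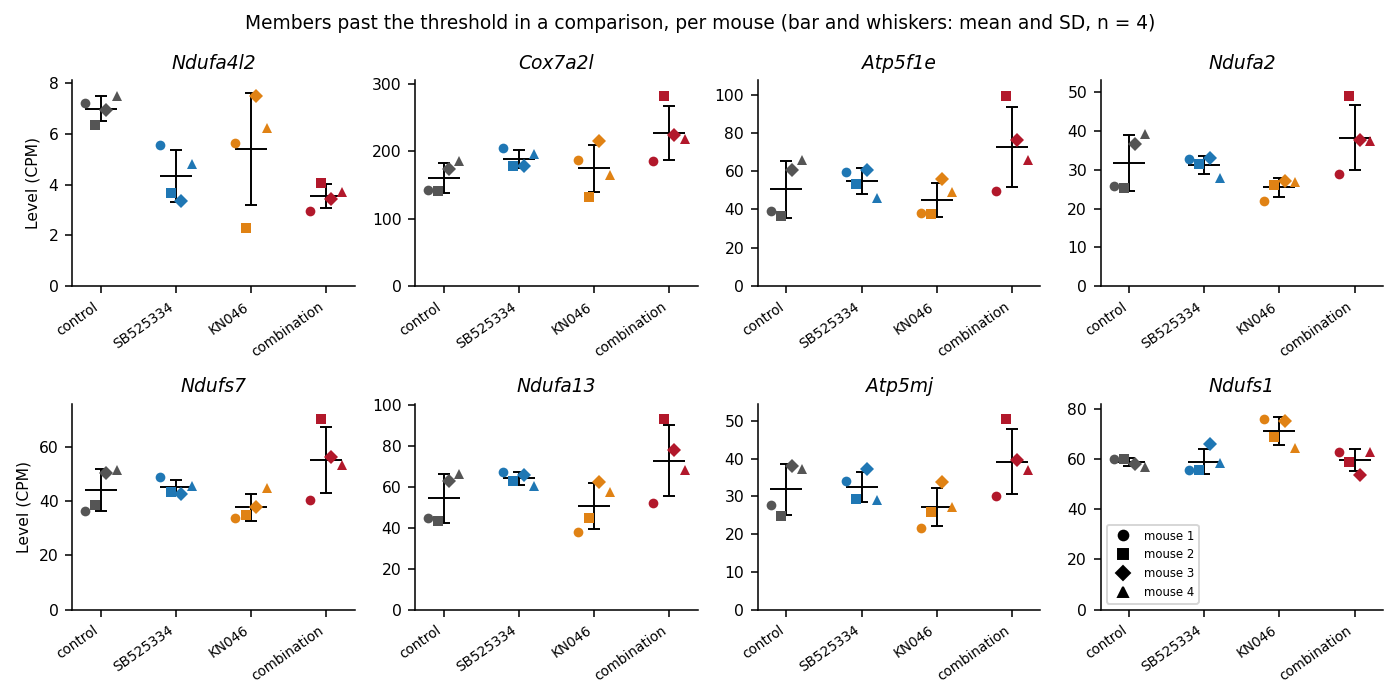
Level in CPM (vertical axis, from 0) of 8 members called in a comparison, by group (horizontal axis), 1 symbol per mouse, with mean and SD (n = 4). Ndufa4l2 is lower in all combination mice than in all control mice, Ndufs1 is highest on average with KN046, and in the other 6 panels combination mouse 2 is the highest of the 16 mice.

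The combination against SB525334 called no member by edgeR, where 3.57% of all genes were called (0.544% higher and 3.03% lower). No member had an unadjusted p under 0.05, where 1283 of the 13968 genes did. DESeq2 also called none. Here 78 of 82 members lay above 0, with a median log2 fold change of 0.17 that was 0.04 without combination mouse 2. The groups did not overlap in 1 member, Ndufa11, where 7.05% of all genes did not overlap. The interaction, which asks whether the difference made by SB525334 depended on KN046, called no member where 4.28% of all genes were called (1.73% higher and 2.55% lower), and DESeq2 called none. At an unadjusted p under 0.05 there were 6 members, 5 of them higher, where 2321 of the 13968 genes were. The smallest adjusted p of the members was 0.171, for Ndufa2. The gap between the comparisons of the combination with KN046 and with control is the comparison of KN046 with control, in which no member was called, and SB525334 was not tested against KN046.

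Among the 17 core members listed by name, none was called against control with SB525334, KN046 or the combination, where 9.61%, 4% and 11.1% of all genes were. In the combination against KN046 the calls among them were Ndufs7 and Ndufs1, where 24.4% of all genes were called. Atp5f1b measured 913 to 1268 CPM in control mice and 991 to 1520 CPM with the combination (log2 fold change 0.16). Sdha measured 252, 255, 301 and 283 CPM in control mice and 249, 291, 253 and 262 CPM with the combination, so the groups overlapped almost fully (log2 fold change -0.05). The other subunits of complex II, the iron-sulfur protein Sdhb and the membrane anchors Sdhc and Sdhd, had log2 fold changes of 0.24, 0.17 and 0.22 in the combination against control. In complex III the core protein genes Uqcrc1 and Uqcrc2 and the Rieske protein gene Uqcrfs1 had values of 0.26, 0.13 and 0.16.

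Several complex IV subunits and their relatives exist as tissue forms, and the forms of heart, muscle or other tissues were near 0 here. Levels in this paragraph are means over the 16 mice per kilobase of canonical transcript. Cox4i1 was at 164 CPM per kb and its lung form Cox4i2 at 0.724 CPM per kb. The broadly expressed Cox6a1 was at 309 and the muscle form Cox6a2 at 0.506 CPM per kb. Cox7a2 was at 61.2 CPM per kb, the muscle form Cox7a1 at 2.03, and the supercomplex subunit Cox7a2l at 150. The remaining families were as one-sided: Cox6b1 was at 96.9 CPM per kb and the testis form Cox6b2 at 0.523, Cox8a at 254 and Cox8b at 0.0160, and Cox7b at 75, while Cox7b2 and Cox8c had 0 counts in all 16 mice. Ndufa4, assigned to complex IV by later work but kept in complex I by its symbol, was at 102 CPM per kb and its paralog Ndufa4l2 at 5.26 CPM per kb. The 3 genes for the c subunit of the ATP synthase rotor, which encode the same mature protein, were of like level, with Atp5mc1 at 139, Atp5mc2 at 214 and Atp5mc3 at 128 CPM per kb. Their log2 fold changes for the combination against control were 0.07, 0.41 and 0.08, none of them called. Atp5if1, the inhibitor of the ATP synthase, was at 3.01 CPM per kb. It measured 1.87, 1.02, 1.62 and 1.56 CPM with KN046 and 2.62, 2.81, 2.07 and 2.07 CPM with the combination, with no overlap, and did not pass the test (log2 fold change 0.66, adjusted p = 0.0699).

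Of the 13 mitochondrially encoded subunits, 10 were tested. Against control 7 fell in SB525334 mice, 0 in KN046 mice and 7 in combination mice, where 9.22%, 2.4% and 9.74% of all genes were called lower. In the combination against KN046 6 fell, where 14.5% of all genes were called lower. None rose. Their summed level was 16877, 15035, 16405 and 16143 CPM in control mice, 7435, 10797, 7401 and 9012 CPM in SB525334 mice, 11757, 15762, 9615 and 16024 CPM with KN046, and 8636, 6527, 4729 and 9353 CPM with the combination. Every SB525334 and combination mouse was below every control mouse, while the KN046 group spread from near the control level to the level of the SB525334 group. The ratio of this sum to the sum of the nuclear members was 2.30 ± 0.436 in control mice, 1.17 ± 0.263 in SB525334 mice, 1.90 ± 0.555 in KN046 mice and 0.934 ± 0.386 in combination mice (SD, n = 4).

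Among single genes, mt-Cytb, the cytochrome b of complex III, measured 2613, 2419, 1968 and 1944 CPM in control mice and 1051, 455, 272 and 791 CPM with the combination. The 2 groups did not overlap, as held for 17.4% of all genes, and the log2 fold change was -1.80 ± 0.38 SE (adjusted p = 0.00237 in edgeR). The largest falls were in the complex I subunits mt-Nd5 (log2 fold change -2.64, adjusted p = 0.000260), mt-Nd6 (-2.54, adjusted p = 0.000285) and mt-Nd2 (-2.28, adjusted p = 0.000422). mt-Co1, the catalytic subunit of complex IV, fell by 0.86 on the log2 scale (adjusted p = 0.00285). Full-length nuclear copies at near identity exist for mt-Co1, mt-Co2, mt-Co3, mt-Atp6, mt-Atp8 and mt-Nd4l, and a copy covers 99.1% of mt-Nd3. Copies at 95% identity or more cover 63.6% of mt-Nd4, 52.4% of mt-Nd5 and 49.2% of mt-Nd2. No copy was found for mt-Nd1, mt-Nd6 or mt-Cytb. How the counting treated reads shared with these copies is not given in the sources used here. The values of the genes with copies are therefore uncertain. Among them are the falls of mt-Co1, mt-Nd5 and mt-Nd2 and the 9 reads of mt-Atp8 over all mice. Over the alternatives 2 to 9 genes fell with SB525334, the lowest with control mice 1 and 2 left out, and 6 to 9 with the combination against control. Against control, 17 of the 18 hepatocyte markers also fell with SB525334 and 17 with the combination, and none with KN046. These sets differed in the combination against SB525334. There 16 of the 18 hepatocyte markers fell (median log2 fold change -5.98). None of the 10 mitochondrially encoded genes was called there (median -0.39). Against control, 4 of 5 neutrophil, 3 of 6 endothelial and 2 of 5 epithelial or carcinoma markers also fell with SB525334. With the combination these counts were 1, 0 and 4. The part of any of these cell types in the result was not tested.

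**Figure D5:**
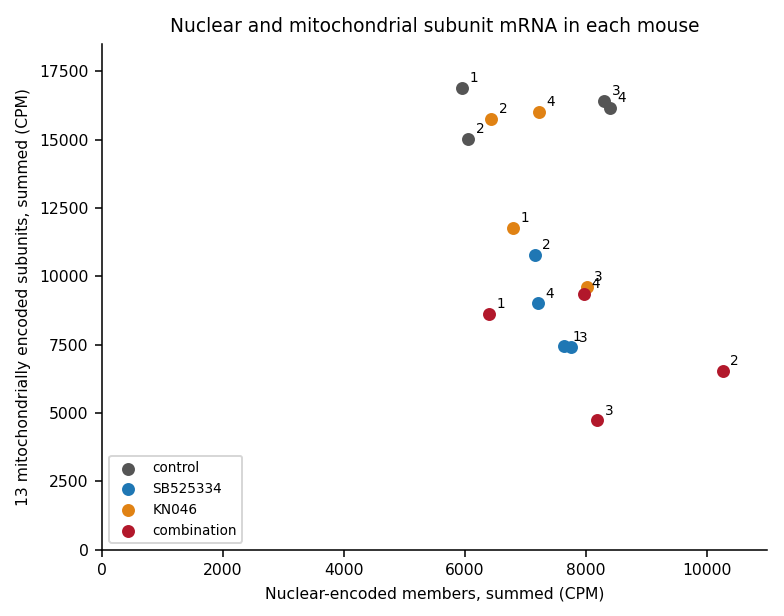
Summed CPM of the 13 mitochondrially encoded subunits (vertical axis) against that of the 89 nuclear members (horizontal axis), 1 point per mouse, numbered by mouse and colored by group. The control points lie between 15035 and 16877 CPM on the vertical axis and the combination points between 4729 and 9353 CPM, while both groups overlap on the horizontal axis.

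Other genes of the pathway were read from lists and are given by counts. In the combination against KN046, where 9.89% of all genes were called higher and 14.5% lower, 3 of 16 tested complex I assembly factors were higher and 1 lower. Timmdc1, one of the higher, was the 1 member of this list called with KN046 against control, where it fell (log2 fold change -0.67, adjusted p = 0.0404). Of 32 factors that assemble complexes II to V, 7 were higher and none lower in that comparison, with Coa4 (0.93), Pet100 (0.81) and Uqcc2 (0.78) the largest on the log2 scale, and none was called in any other comparison. Of 20 mitochondrial import genes, 6 were higher against KN046, led by Tomm5 (0.84), Tomm7 (0.65) and Timm17b (0.61), and none in the other comparisons. The mitochondrial ribosomal proteins, which translate the mitochondrially encoded subunits, had 23 of 77 higher against KN046 beside the 9.89% of all genes, none lower, and no call in the other comparisons. Their median log2 fold change there was 0.35, beside 0.31 for the subunits. Cytosolic ribosomal proteins, a list added after the data were seen, had 18 of 77 higher against KN046 and 9 higher against control, where 1.37% of all genes were called higher.

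The tricarboxylic acid cycle list had a median log2 fold change of -0.01 over 19 genes in the combination against KN046, with 9 above 0. The difference between this list and the subunits was not tested. Its 1 call there was Pcx, the pyruvate carboxylase of gluconeogenesis, which against control fell by 2.77 on the log2 scale in SB525334 mice (adjusted p = 8.19e-07) and by 3.77 in combination mice (adjusted p = 5.50e-09). Among 16 tested regulators of respiratory genes, Ppargc1a, a coactivator of mitochondrial biogenesis that is active in liver, was the 1 gene called against control, lower in SB525334 mice (-2.73, adjusted p = 0.00836) and in combination mice (-3.33, adjusted p = 0.00304), at levels no higher than 3.07 CPM in any mouse. Esrra (0.42, adjusted p = 0.0391) and Yy1 (0.29, adjusted p = 0.0322) were higher in the combination than with KN046. Chchd10, a cristae protein, fell with the combination against control (-2.24, adjusted p = 9.61e-05). Among electron carriers and subunits outside the symbol rule, Etfdh, which passes electrons from fatty acid oxidation to ubiquinone, fell against control in SB525334 mice (-0.39, adjusted p = 0.0105) and in combination mice (-0.31, adjusted p = 0.0430). Pcx, Ppargc1a and Chchd10 moved in the same groups as the hepatocyte markers, and whether these share a source was not tested.

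Transcript length moved with the differences as well. The members are short, with a median canonical transcript of 1002 bases against 3411 bases over all genes tested. Over the genes of the genome, which share libraries and are no replicates, the Spearman correlation of transcript length with the difference between the combination and KN046 was -0.234 (n = 13955 genes). Its median was 0.32 for 604 genes with transcripts under 1000 bases, 0.16 between 1000 and 2000 bases and -0.10 at 4000 bases or longer. For the combination against control the same 3 medians were 0.19, 0.11 and -0.04, beside 0.18 for the members. The part of length in the members' values was not tested.

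Close copies are common in this family. Of the 89 members, 38 had a stretch of at least 100 bases at 95% identity or more elsewhere in GRCm39, and 14 had such a copy for at least 50% of the canonical transcript. Overlap of more than 10% of the exon bases with another gene was found for 32. How the counting treated reads that align to several places is not given in the sources used here, so the levels of these members are uncertain.

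Promoter windows were read from RefSeq on GRCm38.p6, from 250 bases before to 50 bases after the gene start, and 65 of the 82 tested members matched. Letters known from factors of respiratory genes were searched on both strands: TGCGCA, the core of the NRF1 motif, CCGGAAG for ETS factors such as GABP, AAGGTCA for ERR and AAGATGG for YY1. The last letters of CCGGAAG can also be the first of AAGGTCA or AAGATGG, so that these can overlap. TGCGCA was in 18 of 65 members (27.7%) and in 14.8% of 10899 genes tested, CCGGAAG in 16 (24.6%) and 18.5%, AAGGTCA in 8 (12.3%) and 4.12%, and AAGATGG in 11 (16.9%) and 8.05%. Over all 27025 genes in the table the shares were 8.79%, 9.93%, 5.38% and 7.28%. A match describes letters and not a bound site. The 150 bases before the start are shown for the called subunit that rose against control and for the 3 called against KN046 that held a match within them, with the match in capitals, each on the minus strand, at chr17:83514334-83514483, chr2:174464102-174464251, chr4:116075071-116075220 and chr4:123718187-123718336 in the order given.
Cox7a2l: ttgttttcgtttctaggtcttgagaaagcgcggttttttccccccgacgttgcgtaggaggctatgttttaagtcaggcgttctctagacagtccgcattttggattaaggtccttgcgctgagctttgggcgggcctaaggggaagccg
Atp5f1e: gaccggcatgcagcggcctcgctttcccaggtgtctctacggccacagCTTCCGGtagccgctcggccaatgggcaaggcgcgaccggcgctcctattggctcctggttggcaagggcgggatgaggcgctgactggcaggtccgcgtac
Uqcrh: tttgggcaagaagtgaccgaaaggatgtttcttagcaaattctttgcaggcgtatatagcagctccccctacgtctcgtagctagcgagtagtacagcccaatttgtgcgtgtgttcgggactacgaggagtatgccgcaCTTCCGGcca
Ndufs5: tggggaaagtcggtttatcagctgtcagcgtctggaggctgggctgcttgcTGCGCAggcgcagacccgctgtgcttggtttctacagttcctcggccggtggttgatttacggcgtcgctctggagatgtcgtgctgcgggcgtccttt
Within these 150 bases, Atp5f1e held CTTCCGG, the reverse complement of the ETS letters, 102 bases before the start, and Uqcrh held it 10 bases before the start. Ndufs5 held the NRF1 letters 99 bases before the start, and Cox7a2l held none of the 4 motifs. Of the other members called against KN046, Ndufa13, Ndufb5 and Ndufb11 held none of the 4 motifs in the whole window, and Ndufs7 held AAGATGG there but none within the 150 bases. Of the called members, Ndufa2, Ndufa4l2, Ndufs1 and Atp5mj had no window in the table.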

How the data were processed

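Per the labels and the study's methods, the authors used Cutadapt 2.7 for trimming, HISAT2 2.2.1 for alignment to GRCm39 and HTSeq 2.0.4 for gene counts, with 1 table per mouse and no pooling. The deposited raw counts were used here, and the deposited normalized values, the same counts divided by a DESeq2 1.38.3 size factor and rounded, were not used. Of 21959 gene identifiers, 21770 are in GENCODE M39, which gave the symbols.

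Counts were filtered by filterByExpr (minimum count 10), scaled by TMM and tested by edgeR 4.0.16 (R 4.3.3) in 1 quasi-likelihood fit over the 16 mice, with Benjamini-Hochberg adjustment over 13968 genes and a threshold of 0.05. CPM values are counts scaled by TMM. SE values of log2 fold changes are the absolute log2 fold change divided by the square root of the F statistic. They come from the test and are no separate estimate. Each treatment was compared with control and the combination with each single agent, and the interaction was fitted. Comparisons with a shared group share its mice. Close copies were searched with blastn 2.17.0 on GRCm39. The fits were also run on simulated counts in which genes were independent and had the same spread. Those counts held no alike control pairs and no genes that move together. That run checks the code and not the calls made here. Alternatives were DESeq2 1.42.0, other scalings and filters, fewer mice, merged control pairs and the replicate number as a block. Leaving out control pairs was added after the data were seen.

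The members and lists were chosen with earlier results of these data known. The naming rule took called members among the 5 largest rises or falls of a comparison, the 2 highest per kilobase of exon in each complex, 17 core members, isoform families and Atp5if1, and up to 3 called genes of each other list. Ndufa11, Ndufb1, Ndufb2, Ndufb5, Ndufb11 and Ndufs5 lie outside it and were named after their values were seen. The values of 1 member are not reported here by name and enter sums and counts only.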

Additional observations from a re-analysis of the deposited data

Results flagged for a closer look

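In 188 groups of 4 mice, for 47 items, the highest and lowest mouse were set against the other 3. In 1 group a mouse stood apart: Ndufb10, an accessory subunit of complex I, measured 57.8 CPM in SB525334 mouse 4 and 68.7 to 69.4 CPM in the other 3 mice of that group, a gap of 0.939 of the range, past Dixon's 95% critical value. Chance flags about 1 in 20 such groups, or 9.4 of 188.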

How the results depend on the processing

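No value in these comparisons changed its direction past the threshold. The total level of the members relative to control kept its order under total count scaling and with the 3 most abundant members left out. The counts of called members changed as follows. For SB525334 against control the count of 0 became 1 with only the 8 mice compared and 1 with control mice 3 and 4 left out. For KN046 against control it became 1 with DESeq2 and 1 with control mice 1 and 2 left out. For the combination against control the count of 2 became 0 with the control pairs merged, 0 with control mice 1 and 2 left out and 23 with control mice 3 and 4 left out. For the combination against KN046 the count of 10 became 17 with total count scaling, 3 with only the 8 mice compared and 5 with the control pairs merged. The interaction count of 0 became 2 with control mice 1 and 2 left out. Why the counts moved was not tested, beyond the smaller number of mice in some of these fits. With each mouse left out in turn, the counts ranged from 0 to 2 for KN046 against control (2 without KN046 mouse 2), from 0 to 13 for the combination against control (0 without control mouse 1 or combination mouse 3, 13 without combination mouse 1) and from 0 to 34 for the combination against KN046, where the count was also 3 without KN046 mouse 1, 3 without combination mouse 3, 4 without combination mouse 4 and 6 without KN046 mouse 2. The other comparisons stayed at 0. The share of all genes called was not set beside any of these counts. Whether a change was particular to the members therefore cannot be read from them.

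With the replicate block the counts of the 6 comparisons were 0, 0, 2, 11, 0 and 0. The labels do not say that a number marks a shared litter or day. Of 24 correlations between same-numbered mice, 7 were over 0.1 (lowest -0.37, highest 0.407). These values cannot decide whether the numbers pair the mice, so the block was kept as an alternative. With 4 mice a group, the biological coefficient of variation was 20.1%. Low members such as Cox4i2 and Cox7a1, under 1 CPM, are limited by counting error.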
